A study of Mus musculus with 24 samples.

Results

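The acetylcholine receptor genes of the mouse striatum are described here across 4 groups of mice, in a study of RGFP109, an inhibitor of the histone deacetylases HDAC1 and HDAC3, in the R6/1 model of Huntington's disease. The genes were chosen by name. They are the 5 muscarinic receptor genes Chrm1 to Chrm5 and the 5 nicotinic subunit genes Chrna3, Chrna4, Chrna5, Chrna7 and Chrnb2, 10 of the 24341 genes listed in the expression tables. All 10 had a mean FPKM (mapped fragments scaled to transcript length and to the library's total) of at least 0.1 over the groups. The mean was at least 1 for 7 of them and below 1 for Chrm5, Chrna5 and Chrna3.

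The mice were males on the C57BL/6J background. R6/1 mice carry a transgene with the first exon of human HTT and an expanded CAG repeat, here in the hemizygous state, and WT littermates do not. Each genotype received intraperitoneal vehicle (DMSO in saline) or RGFP109 at 30 mg/kg, 5 times a week for 3 weeks. Injections began at 11 to 14 weeks of age, and the striatum was taken at 14 to 17 weeks, 18 h after the last dose. The 4 groups are called WT-vehicle (5 libraries), R6/1-vehicle (6), WT-RGFP109 (6) and R6/1-RGFP109 (7). The 24 libraries were sequenced in 2 pools of 12, and no value could be computed within a pool. The transgene itself was not analysed here.

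The values used are 1 FPKM per gene and group, as the authors computed it over the libraries of that group for each pairwise table. No spread between mice accompanies them, and the authors' own test results for each pair were not used here. The differences below therefore have no replicate check, no test was made, and a difference is described only by its size. Each is given as log2(FPKM + 0.05) in 1 group minus the same in the other, and "past the fold" means an absolute value above 0.5, which is a ratio of 1.41. The number of reads behind each value is unknown, and values under 1 FPKM rest on the fewest reads. Markers of striatal projection neurons were abundant, with Ppp1r1b at 1137 FPKM, Penk at 1102 FPKM and Drd2 at 96.5 FPKM in WT-vehicle.

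Acetylcholine in the striatum is released mainly by local cholinergic interneurons. Muscarinic receptors are G protein-coupled. The M1, M3 and M5 receptors couple to Gq and phospholipase C, while M2 and M4 couple to Gi and lower cyclic AMP. M1 is found on projection neurons of both the direct and the indirect pathway, M4 is enriched on those of the direct pathway, and M2 acts as an autoreceptor on cholinergic neurons. Nicotinic receptors are pentameric cation channels. Receptors of alpha4 and beta2 subunits bind nicotine with high affinity and are found on dopamine terminals and on cortical and thalamic neurons.

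Chrm4, Chrm5 and Chrna4 lie apart from each other on chromosome 2, and Chrna3 and Chrna5 are neighbours on chromosome 9. Chrm1 is at chr19:8664005-8683606, Chrm2 at chr6:36387991-36528638, Chrm3 at chr13:9875486-10361062, Chrm4 at chr2:91922189-91929835 and Chrm5 at chr2:112478733-112536361, in RefSeq gene models of mouse GRCm38.p6. Each of the 5 muscarinic genes has its coding sequence in 1 exon of the longest coding transcript. Chrna3 is at chr9:55010117-55026562 and Chrna5 at chr9:54980827-55011420, so that their gene models share 1304 bases on opposite strands. Chrna4 is at chr2:181022311-181043579, Chrna7 at chr7:63098692-63212526 and Chrnb2 at chr3:89753448-89764632. Chrna7 has 10 coding exons, Chrna4 has 7, and Chrna3, Chrna5 and Chrnb2 have 6 each. Chrm4 shares 31 bases with Mdk and Chrnb2 shares 8 bases with Adar, and these pairs also share 1 locus in the tables, as do Chrm2, 9330158H04Rik and Mir490. Whether reads were counted by strand is not given in the sources used here, so reads from such overlaps cannot be told apart. Mdk was at 22.8 FPKM in WT-vehicle and 20.7 FPKM in R6/1-vehicle, a log2 difference of -0.17, and Adar was at 43.4 and 48.3 FPKM, a log2 difference of 0.12. The gene model of Chrm5 shares 43479 bases with that of Aven, which differed by -0.15. The locus listed for Chrm5 in the tables is shorter, chr2:112479072-112480817, and 0 other genes share it. The gene model of Chrm2 shares 244 bases with 9330158H04Rik, which was at 0.121 and 0.247 FPKM, a log2 difference of 0.77.

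The 250 bases before a RefSeq transcript start are shown for 4 genes. For Chrna4 and Chrm3 this start, at 181039177 and 10360803, is also where the locus in the tables ends, while the gene models given above reach further upstream, so these windows lie inside them. Chrm4 and Chrna4 had the lowest log2 differences between genotypes with vehicle, Chrnb2 encodes the usual partner of the Chrna4 product and was higher in R6/1 mice, and Chrm3 stood nearest to the fold in the same comparison. The sequences run 5′ to 3′ on the gene's strand, from RefSeq on GRCm38.p6, and entries were found for 9 of the 10 genes. Capitals mark GC boxes, the letters GGGCGG or their reverse complement CCGCCC.
Chrm4, chr2:91921939-91922188, plus strand: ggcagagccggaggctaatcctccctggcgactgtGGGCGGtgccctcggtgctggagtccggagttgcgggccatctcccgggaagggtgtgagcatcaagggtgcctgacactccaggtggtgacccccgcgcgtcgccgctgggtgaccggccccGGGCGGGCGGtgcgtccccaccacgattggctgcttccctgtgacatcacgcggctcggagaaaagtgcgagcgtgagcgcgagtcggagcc
Chrna4, chr2:181039178-181039427, minus strand: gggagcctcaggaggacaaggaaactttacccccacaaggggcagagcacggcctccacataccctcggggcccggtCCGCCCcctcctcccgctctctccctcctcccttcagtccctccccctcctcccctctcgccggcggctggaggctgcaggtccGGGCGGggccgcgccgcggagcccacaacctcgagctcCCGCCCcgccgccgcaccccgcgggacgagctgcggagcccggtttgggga
Chrm3, chr13:10360804-10361053, minus strand: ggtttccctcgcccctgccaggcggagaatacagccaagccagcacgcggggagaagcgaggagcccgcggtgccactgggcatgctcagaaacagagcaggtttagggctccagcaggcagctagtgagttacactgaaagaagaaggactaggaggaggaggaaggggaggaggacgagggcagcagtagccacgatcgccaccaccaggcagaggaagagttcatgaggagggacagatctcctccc
Chrnb2, chr3:89764633-89764882, minus strand: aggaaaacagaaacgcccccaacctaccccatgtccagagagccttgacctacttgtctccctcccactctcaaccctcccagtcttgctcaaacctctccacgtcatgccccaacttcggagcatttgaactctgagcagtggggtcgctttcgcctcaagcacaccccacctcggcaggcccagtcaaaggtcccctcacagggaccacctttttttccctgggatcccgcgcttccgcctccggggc

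The windows of Chrm4 and Chrna4 held 3 GC boxes each, in Chrm4 with an overlapping pair, and those of Chrm3 and Chrnb2 held 0. Among the windows not shown, those of Chrna5, also past the fold with vehicle, held 0 and 4. Those of Chrm2, Chrna3 and Chrna7 held 1 each, and that of Chrm5 held 0. A link between GC boxes and the differences was not tested. A GC box stood in 32.7% of all 32851 mouse promoter windows of this length. GC content was 70.0% in Chrm4, 74.4% in Chrna4, 61.2% in Chrm3 and 59.6% in Chrnb2, against a median of 52.4% over all windows. The ratio of observed to expected CpG was 0.857, 0.724, 0.441 and 0.516 in the same order, against a median of 0.374. A CCAAT box (CCAAT, either strand) was found in the Chrm4 window and in 33.8% of all windows. The letters TGACG, the core of the cyclic AMP response element, was found in the Chrnb2 window and in 17.8% of all windows. A TATA box (TATAAA) was found in none of the 4 and in 12.4% of all windows. Of the left and right core letters of RE1, the element bound by the neuronal repressor REST, GGACAG was found in the Chrm3 window and in 18.7% of all windows, while TTCAGCACC was found in none of the 4 and in 0.301% of all windows. These matches are of letters in a fixed window, and binding was not measured.

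In WT-vehicle mice, the most abundant of the 10 transcripts were Chrm4 at 40.4 FPKM and Chrm1 at 37.8 FPKM, as the mean of the values in the 3 tables that hold this group. Chrnb2 followed at 14.8 FPKM, Chrna4 at 8.19 FPKM, Chrm3 at 7.69 FPKM, Chrna7 at 6.18 FPKM and Chrm2 at 1.94 FPKM. Chrna5 at 0.619 FPKM, Chrm5 at 0.551 FPKM and Chrna3 at 0.258 FPKM were at the low end. FPKM is scaled to transcript length, so levels can be set side by side between genes. Each table was normalized on its own, but a group's value differed by at most a factor of 1.04 between tables. Over the 4 groups, Chrm1 averaged 33.3 FPKM, above 83.1% of the 16822 genes that reached 0.1 FPKM, and Chrm4 averaged 29.4 FPKM, above 80.8% of them. Chrna3 averaged 0.219 FPKM, above 5.30% of them. The order of Chrm4 and Chrm1 was the opposite in R6/1-vehicle mice, in which Chrm1 was at 29.1 FPKM and Chrm4 at 18.3 FPKM.

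**Figure D1:**
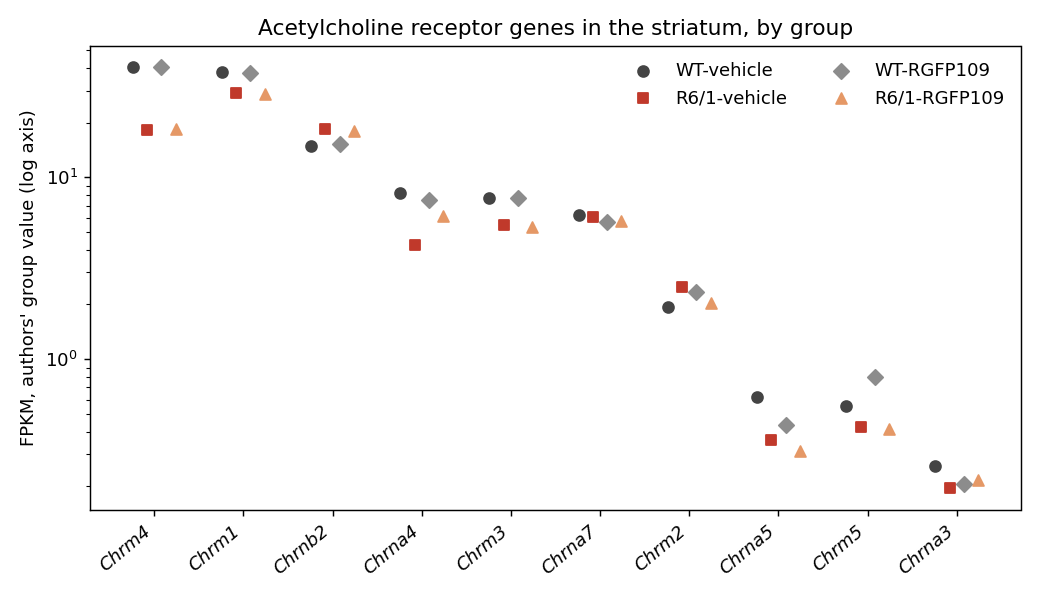
FPKM of each receptor gene (log axis) in the 4 groups, 1 point per group, the mean of that group's value in 3 tables, with no error bars because no spread was given. Chrm4 was near 40.4 FPKM in both WT groups and near 18.3 FPKM in both R6/1 groups, while Chrna4 was at 4.23 FPKM in R6/1-vehicle and 6.13 FPKM in R6/1-RGFP109.

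The first comparison asked how the receptor genes differed between R6/1 and WT mice that received vehicle. Chrm4, Chrna4, Chrna5 and Chrm3 were lower in R6/1 mice by more than the fold, so 4 of the 10 genes were past it in that direction, and 0 were past it in the other. Over all 16822 genes, 12.7% were lower by more than the fold and 5.47% were higher. Of the 10 receptor genes, 8 had a log2 difference below 0, against 51.9% of all genes, and their median difference was -0.39 against -0.01 over all genes. Genes with little RNA pass the fold more often. In this comparison 23.8% of the 3107 genes between 0.1 and 1 FPKM and 10.1% of the 13715 genes of at least 1 FPKM were lower by more than the fold. Chrna5 belongs to the first class, and Chrm4, Chrna4 and Chrm3 to the second. After adding 1 FPKM in place of 0.05, Chrna5 at -0.26 and Chrm3 at -0.45 were within the fold. The gene just past the fold was Chrm3 at -0.52, and the nearest gene not past it was Chrm1 at -0.41.

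Among the Gi-coupled receptors, Chrm4, which opposes D1 dopamine receptor signalling in direct pathway neurons, was at 40.9 FPKM in WT-vehicle and 18.1 FPKM in R6/1-vehicle, a log2 difference of -1.17. This was the lowest of the 10 log2 differences. Chrm2, the gene of a receptor that can act as an autoreceptor, was at 1.96 and 2.48 FPKM, a log2 difference of 0.34. The muscarinic genes of the same coupling thus stood on opposite sides of 0.

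Among the Gq-coupled receptors, Chrm1 was at 38.2 FPKM in WT-vehicle and 28.8 FPKM in R6/1-vehicle, a log2 difference of -0.41. Chrm3 was at 7.77 and 5.41 FPKM, a log2 difference of -0.52. Chrm5, known for its expression in midbrain dopamine neurons, was at 0.557 and 0.419 FPKM, a log2 difference of -0.37. All 3 had lower values in R6/1-vehicle, and the differences spanned a narrow range.

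Of the nicotinic genes, Chrna4, which encodes the ligand-binding subunit of the high-affinity receptor, was at 8.27 FPKM in WT-vehicle and 4.18 FPKM in R6/1-vehicle, a log2 difference of -0.98. Chrnb2, its partner subunit, was at 15.0 and 18.1 FPKM, a log2 difference of 0.27. The genes of the alpha4 and beta2 subunits therefore had differences of opposite sign. Chrna5, an accessory subunit that joins alpha4 and beta2, was at 0.626 and 0.354 FPKM, a log2 difference of -0.74. Chrna7, which forms a calcium-permeable channel on its own, was at 6.24 and 5.95 FPKM, a log2 difference of -0.07. Chrna3, best known from autonomic ganglia and the medial habenula, was at 0.261 and 0.193 FPKM, a log2 difference of -0.35. Chrna7 was the gene nearest to 0.

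**Figure D2:**
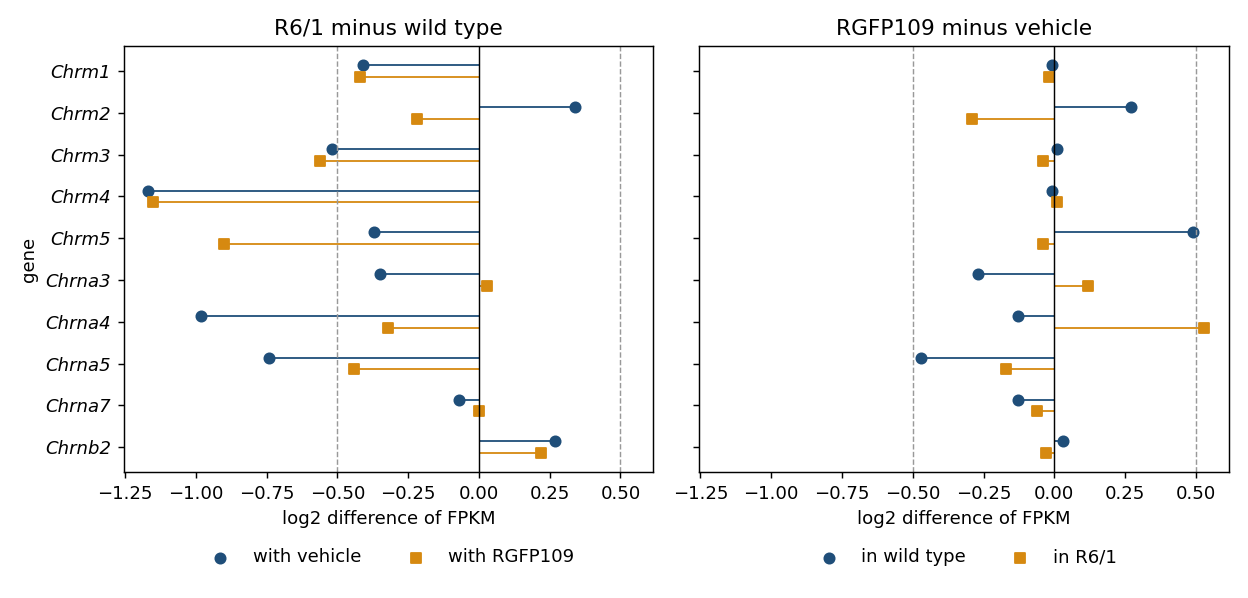
Log2 difference of FPKM for each receptor gene, on the left R6/1 minus WT with vehicle (circles) and with RGFP109 (squares), on the right RGFP109 minus vehicle in WT (circles) and R6/1 mice (squares). Dashed lines mark the fold of 0.5 in either direction. Chrm4 stands at -1.17 and -1.15 on the left and near 0 on the right, and Chrna4 moves from -0.98 with vehicle to -0.32 with RGFP109.

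The genotypes were compared again between mice that received RGFP109. Chrm4, Chrm3 and Chrm5 were lower in R6/1 mice by more than the fold and 0 genes were higher, against 11.2% lower and 5.19% higher over all genes. Of the 10 receptor genes, 7 had a log2 difference below 0, against 49.7% of all genes, and the median was -0.37 against 0.00. Chrm4 was at 40.9 FPKM in WT-RGFP109 and 18.3 FPKM in R6/1-RGFP109, a log2 difference of -1.15. Chrm3 was at 7.83 and 5.29 FPKM, a log2 difference of -0.56, and Chrm1 was at 38.0 and 28.4 FPKM, a log2 difference of -0.42. These 3 genes repeated their differences under vehicle to within 0.1 on the log2 scale, in groups of other mice. Chrm5 was at 0.807 and 0.409 FPKM, a log2 difference of -0.90. In its class of 0.1 to 1 FPKM 22.4% of genes were lower by more than the fold, and 8.68% were in the class of at least 1 FPKM.

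The 5 nicotinic genes each had a smaller difference in size between genotypes with RGFP109 than with vehicle, which was not tested. The share of all genes with a smaller difference was not computed. In WT mice the value was lower with RGFP109 for Chrna5, from 0.604 to 0.423 FPKM, and for Chrna3, from 0.252 to 0.201 FPKM. It was lower by less for Chrna4 and Chrna7. In R6/1 mice Chrna5 was lower with RGFP109 as well, from 0.367 to 0.320 FPKM. Chrna4 was at 7.61 FPKM in WT-RGFP109 and 6.07 FPKM in R6/1-RGFP109, a log2 difference of -0.32. Chrna5 was at 0.440 and 0.310 FPKM, a log2 difference of -0.44, and Chrna3 was at 0.208 and 0.214 FPKM, a log2 difference of 0.03. Chrna7 was at 5.73 FPKM in both groups. Chrnb2 was at 15.4 and 17.9 FPKM, a log2 difference of 0.22, close to that under vehicle. Chrm2 was at 2.38 and 2.03 FPKM, a log2 difference of -0.22, the opposite sign to that under vehicle.

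The makeup of the receptor transcripts was described by shares of summed FPKM, from each group's mean over 3 tables. The 5 muscarinic genes summed to 88.4 FPKM in WT-vehicle and 55.8 FPKM in R6/1-vehicle, and with RGFP109 88.7 FPKM in WT and 55.0 FPKM in R6/1 mice. In the same order of groups, Chrm4 made up 45.8%, 32.8%, 45.5% and 33.6% of these sums, and Chrm1 made up 42.7%, 52.1%, 42.3% and 52.2%. The Gi-coupled pair Chrm2 and Chrm4 together held 48.0% in WT-vehicle and 37.3% in R6/1-vehicle. The Gq-coupled genes held 52.0% and 62.7%. With RGFP109 the Gi-coupled pair held 48.1% in WT and 37.4% in R6/1 mice. The R6/1 groups thus had a smaller muscarinic sum and a larger Gq-coupled share than the WT groups, with or without RGFP109.

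The 5 nicotinic genes summed to 30.1 FPKM in WT-vehicle and 29.2 FPKM in R6/1-vehicle, and with RGFP109 28.9 FPKM in WT and 30.5 FPKM in R6/1 mice. The sum was similar in all groups while its makeup was not. Chrna4 held 27.2% of the sum in WT-vehicle and 14.5% in R6/1-vehicle, and with RGFP109 25.9% in WT and 20.1% in R6/1 mice. Chrnb2 held 49.3%, 62.9%, 52.3% and 59.2% in the same order. The ratio of Chrna4 to Chrnb2 FPKM was 0.551 in WT-vehicle and 0.230 in R6/1-vehicle, and with RGFP109 0.495 in WT and 0.340 in R6/1 mice.

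**Figure D3:**
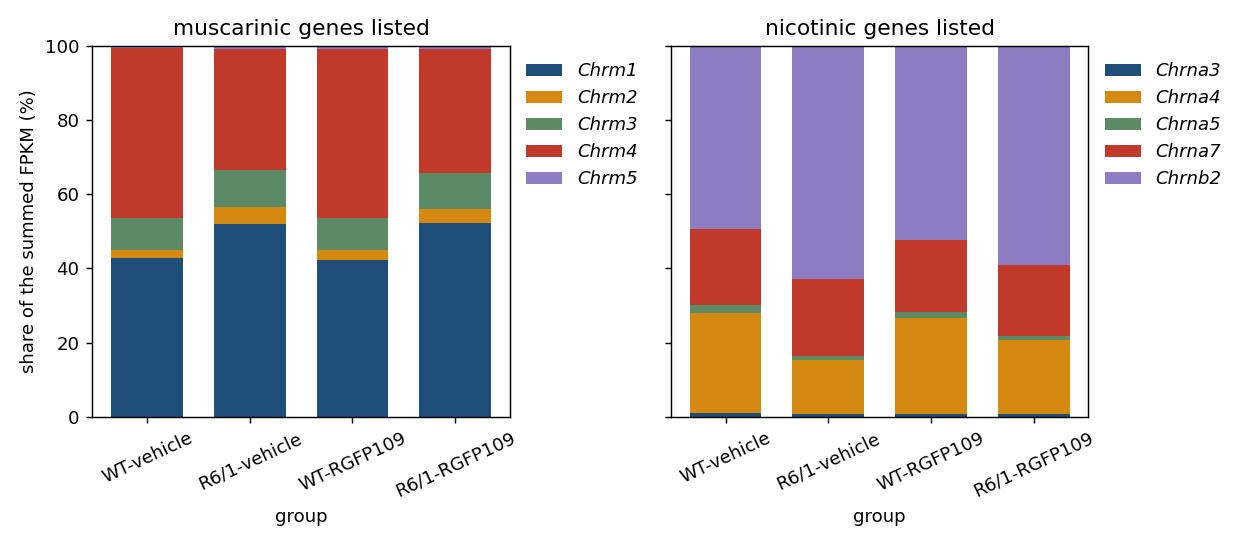
Share (%) of the summed FPKM held by each gene in each group, for the 5 muscarinic genes (left) and the 5 nicotinic genes (right). The Chrm4 share is 45.8% in WT-vehicle and 32.8% in R6/1-vehicle, and the Chrna4 share is 27.2% and 14.5%.

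The effect of RGFP109 was described within each genotype. The comparison in R6/1 mice shares the R6/1-vehicle group with the vehicle genotype comparison, so its values are set beside that one and are not independent of it. In R6/1 mice 1 of the 10 receptor genes, Chrna4, was higher with RGFP109 by more than the fold and 0 were lower, against 2.43% higher and 2.84% lower over all genes. The median difference was -0.03 against 0.00. Chrna4 was at 4.33 FPKM in R6/1-vehicle and 6.25 FPKM in R6/1-RGFP109, a log2 difference of 0.53. Chrm4 was at 18.7 and 18.9 FPKM, a log2 difference of 0.01. Chrm1 differed by -0.02, Chrm3 by -0.04, Chrm5 by -0.04, Chrnb2 by -0.03 and Chrna7 by -0.06. Chrm2 differed by -0.29, Chrna5 by -0.17 and Chrna3 by 0.12. Chrna4 was thus the gene past the fold, and the genes of the abundant muscarinic receptors differed by 0.04 or less in size. The Chrna4 value stood near the fold, and was 0.45 after adding 1 FPKM in place of 0.05.

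In WT mice 0 of the 10 genes were past the fold with RGFP109, against 4.29% lower and 2.84% higher over all genes, and the median difference was -0.01. Chrm1 differed by -0.01, Chrm3 by 0.01, Chrm4 by -0.01 and Chrnb2 by 0.03. Chrm5 was at 0.538 FPKM in WT-vehicle and 0.777 FPKM in WT-RGFP109, a log2 difference of 0.49. Chrna5 was at 0.604 and 0.423 FPKM, a log2 difference of -0.47. These 2 genes, each under 1 FPKM, came nearest to the fold. Chrm2 differed by 0.27, Chrna3 by -0.27, Chrna4 by -0.13 and Chrna7 by -0.13.

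Chrna4 had a lower value with RGFP109 in WT mice and a higher value in R6/1 mice, and its difference in R6/1 minus that in WT mice was 0.65. The same quantity was -0.56 for Chrm2 and -0.53 for Chrm5. It was over 0.5 in size for these 3 of the 10 genes, against 9.95% of all genes (1673 of 16822). Among genes of at least 1 FPKM, the class of Chrna4 and Chrm2, the share was 5.52% (757 of 13715). Chrm5 was under 1 FPKM. Among the kept genes of that class the share was therefore above 9.95%, but it was not computed. With 1 value per group the difference between the genotypes was not tested.

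R6/1-RGFP109 was also set against WT-vehicle, a comparison that shares a group with those above. Chrm4, Chrna5 and Chrm3 were lower by more than the fold and 0 genes were higher, against 13.0% lower and 5.23% higher over all genes, and the median was -0.42 against -0.01. Chrm4 stood at -1.16, Chrna5 at -0.91, Chrm3 at -0.56, Chrna4 at -0.45 and Chrm1 at -0.43. Of the log2 difference of Chrna4 between the vehicle groups, 54.0% was closed in R6/1-RGFP109. For Chrm4 the share was 1.11%. For Chrm3 and Chrna5 it was -7.33% and -23.0%, since both were slightly further from WT-vehicle with RGFP109.

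Markers of other cells and of tissue next to the striatum, which was dissected from 1 hemisphere, are given here. In bulk tissue, fewer cells of a type and less RNA per cell cannot be told apart. For comparison, 12.7% of all genes were lower by more than the fold between the vehicle groups. With RGFP109 in R6/1 mice 2.43% of all genes were higher by more than it. Of 7 marker genes of neocortical excitatory neurons, 7 were lower in R6/1-vehicle than in WT-vehicle by more than the fold, with a median of -0.84 and a summed level of 405 FPKM in WT-vehicle and 228 FPKM in R6/1-vehicle. In R6/1 mice 2 of the 7 were higher with RGFP109 by more than the fold and 0 were lower, with a median of 0.44 and a sum of 228 and 280 FPKM. Neurod6 differed by 0.51, Neurod2 by 0.50 and Slc17a7 by 0.31, and Nrn1 differed by -0.03. In WT mice 0 of the 7 were past the fold with RGFP109, with a median of -0.12 and a sum of 405 and 373 FPKM. Between genotypes with RGFP109 the median of the list was -0.16. This list moved in the same direction as Chrna4 in each of these 4 comparisons, and its part in the Chrna4 values was not tested. Oligodendrocyte markers were lower in R6/1-vehicle (3 of 4 past the fold, median -0.87). With RGFP109 they differed by a median of 0.18 in R6/1 mice, with 0 past the fold, and by -0.37 in WT mice. Between genotypes with RGFP109 their median was -0.34. The oligodendrocyte list thus also moved in the same direction as Chrna4 in the 4 comparisons, and its part in the Chrna4 values was not tested.

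Markers of striatal neurons are set beside the muscarinic genes, with 12.7% of all genes lower in R6/1-vehicle by more than the fold. Of 4 markers of direct pathway neurons, where M4 is enriched, 1 was lower in R6/1-vehicle by more than the fold, with a median of -0.29. It was Drd1 at -0.99, while Pdyn was at -0.47, Tac1 at -0.11 and Eya1 at 0.27. Of 4 markers of indirect pathway neurons, 4 were lower, with a median of -1.74. Of 6 markers of projection neurons of both pathways, 4 were lower, with a median of -1.03. Chrm4 at -1.17 was thus below each of the 4 direct pathway markers, and Chrm1 at -0.41 was close to Bcl11b at -0.41 and Foxp1 at -0.39. With RGFP109 in R6/1 mice the medians of the 3 lists were -0.12, -0.14 and -0.15, with 0 genes past the fold, beside 0.01 for Chrm4 and -0.02 for Chrm1.

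**Figure D4:**
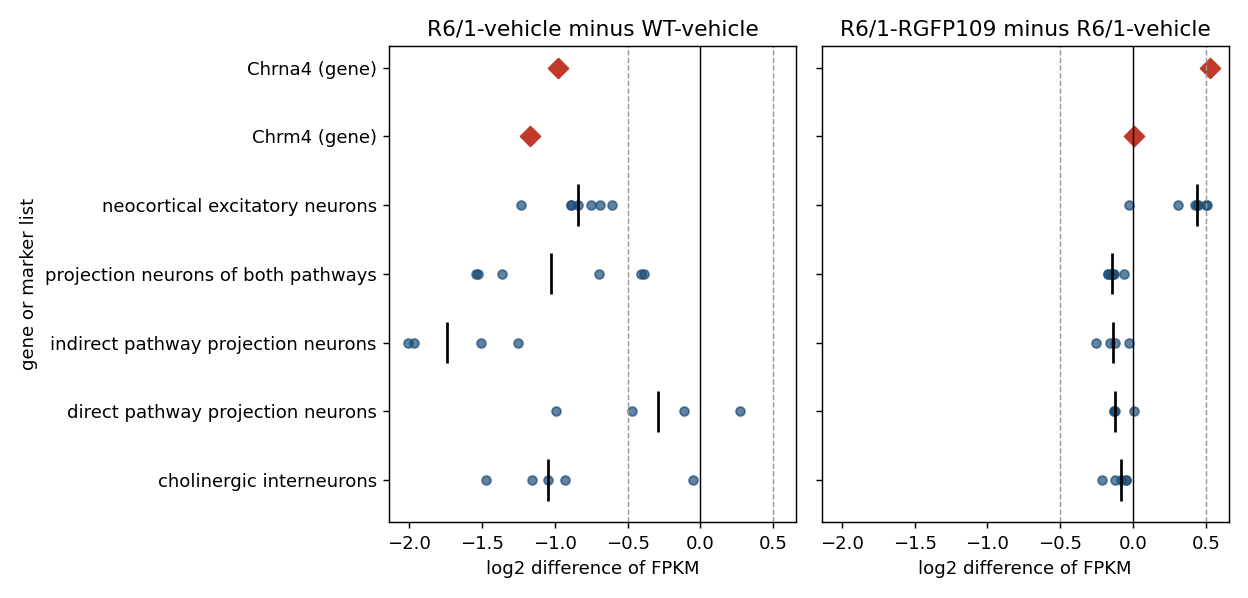
Log2 difference of FPKM for Chrna4 and Chrm4 (diamonds) and for the genes of 5 marker lists (circles, with a bar at the list's median), R6/1-vehicle minus WT-vehicle on the left and R6/1-RGFP109 minus R6/1-vehicle on the right. Dashed lines mark the fold of 0.5. The neocortical list has medians of -0.84 and 0.44 beside -0.98 and 0.53 for Chrna4, and the projection neuron lists lie near 0 on the right, as does Chrm4 at 0.01.

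Lists chosen as markers of tissue outside the striatum also differed in the WT-RGFP109 group, where Chrm5 and Chrm2 had their higher WT values. Whether their RNA came from outside the striatum was not tested. With RGFP109 in WT mice, 2.84% of all genes were higher by more than the fold and 4.29% were lower. Of 4 markers of midbrain dopamine neurons, 2 were higher in WT-RGFP109 than in WT-vehicle by more than the fold. Th was at 4.40 FPKM in WT-vehicle and 9.06 FPKM in WT-RGFP109, a log2 difference of 1.03, and Slc6a3 differed by 1.23. Slc18a2 and Ddc differed by 0.15 and -0.12. The summed level of the list was 11.8 FPKM in WT-vehicle and 12.2 FPKM in R6/1-vehicle, and with RGFP109 16.3 FPKM in WT and 12.3 FPKM in R6/1 mice. Of 6 thalamus and habenula markers, 2 were higher in WT-RGFP109 by more than the fold, Gbx2 by 1.13 and Slc17a6 by 0.64, and 0 were lower by more than it. Calb2 differed by 0.49, Tac2 by -0.02, Pou4f1 by -0.41 and Lhx9 by -0.48, so 3 of the 6 were below 0, and the median was 0.24. Their summed level was 44.6, 31.6, 55.4 and 34.9 FPKM in the same order of groups. Most of it in WT-vehicle was Calb2 at 21.2 FPKM and Tac2 at 18.7 FPKM, while Gbx2, Pou4f1 and Lhx9 were under 1 FPKM in all 4 groups. Choroid plexus markers were lower with RGFP109 in both genotypes, 6 of 6 in each, from 43.2 to 16.0 FPKM summed in WT and from 24.9 to 9.25 FPKM in R6/1 mice. The part of these markers in the values of Chrm5 and Chrm2 was not tested.

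The other genes of the cholinergic system were taken in 4 lists. For comparison, 12.7% of all genes were lower by more than the fold between the vehicle groups and 5.47% were higher. With RGFP109 in R6/1 mice these shares were 2.84% and 2.43%. Of 8 genes for acetylcholine synthesis, storage, uptake and breakdown, 5 were lower in R6/1-vehicle than in WT-vehicle by more than the fold and 0 were higher, with a median of -0.96. Chat, the enzyme that makes acetylcholine, was at 8.78 FPKM in WT-vehicle and 3.13 FPKM in R6/1-vehicle, a log2 difference of -1.47. Slc5a7, the high-affinity choline transporter, was at 5.15 and 2.28 FPKM, a log2 difference of -1.16. Slc18a3, the vesicular transporter, was at 3.79 and 1.96 FPKM, a log2 difference of -0.93. Ache, the enzyme that breaks acetylcholine down, was at 43.7 and 45.5 FPKM, a log2 difference of 0.06, while its membrane anchor Prima1 was at 16.1 and 5.21 FPKM, a log2 difference of -1.61. Its collagen tail gene Colq differed by -0.99. Of 5 markers of cholinergic interneurons, among them Chat, Slc5a7 and Slc18a3, 4 were lower by more than the fold, and Lhx8, a transcription factor of these cells, differed by -0.05. In R6/1 mice 0 of the 8 genes were past the fold with RGFP109, with a median of -0.04.

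Of 7 chaperones and modulators of nicotinic receptors, 4 were lower in R6/1-vehicle by more than the fold and 0 were higher, with a median of -0.54. Lynx1, a membrane-anchored brake on nicotinic receptors, was at 116 FPKM in WT-vehicle and 54.4 FPKM in R6/1-vehicle, a log2 difference of -1.09. The related genes Lypd6b, Lypd6 and Lypd1 differed by -0.81, -0.73 and -0.54. The assembly chaperones Ric3 and Tmem35 each differed by 0.18. Between R6/1-RGFP109 and R6/1-vehicle 0 of the 7 were past the fold. Lypd6b differed by 0.43 and Lypd1 by -0.43.

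Of 20 genes of muscarinic signalling, 5 were lower in R6/1-vehicle by more than the fold, 15 were within it and 0 were higher, with a median of -0.25. The 5 were Rgs9 at -1.54 and Rgs4 at -1.39, which speed up the switching off of G proteins, Adcy5 at -1.18, the main striatal adenylyl cyclase, Kcnj4 at -0.93, an inward rectifier potassium channel, and Camk2a at -0.75, a calcium-dependent kinase. The G protein alpha subunits differed little. Gnaq stood at 0.24, Gna11 at 0.04, Gnai1 at 0.04, Gnai2 at 0.09, Gnai3 at 0.03 and Gnao1 at -0.24. For RGFP109 in R6/1 mice 0 of the 20 were past the fold, with a range from -0.17 to 0.17.

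Of the 11 other nicotinic subunit genes, 6 reached 0.1 FPKM, and each was below 1 FPKM. In that class 23.8% of genes were lower in R6/1-vehicle by more than the fold. Chrnb3 at -0.63 and Chrnb4 at -0.53 were lower in R6/1-vehicle by more than the fold, and Chrna2 at 0.66 was higher, with a median of -0.20. Chrna2, a subunit with restricted expression in the brain, was at 0.324 FPKM in WT-vehicle and 0.551 FPKM in R6/1-vehicle, and with RGFP109 0.854 FPKM in WT and 0.291 FPKM in R6/1 mice. With RGFP109 in R6/1 mice 3 of the 6 were lower by more than the fold, Chrna2 at -0.82, Chrnb4 at -0.64 and Chrna10 at -0.59. This compares with 2.84% of all genes, and the share among genes under 1 FPKM was not computed. In WT mice Chrna2 was higher by 1.27 and Chrnb4 stood at -0.55. Chrnd and Chrng, subunits of the muscle receptor, were listed at 0 in all groups.

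**Figure D5:**
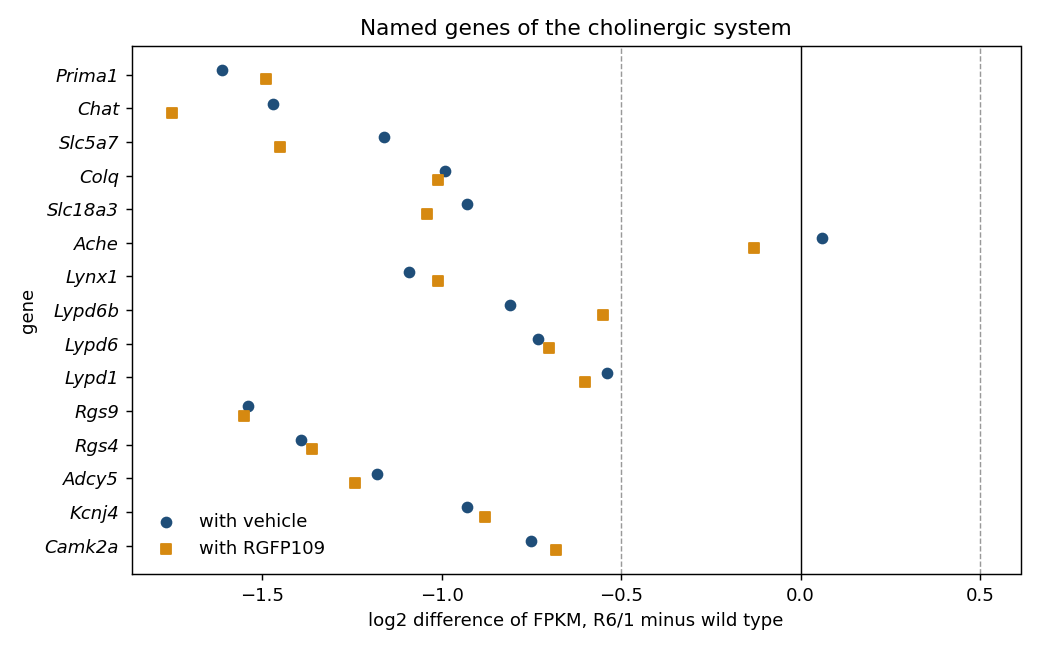
Log2 difference of FPKM, R6/1 minus WT, with vehicle (circles) and with RGFP109 (squares), for the named genes of acetylcholine metabolism (Prima1 to Ache), nicotinic modulators (Lynx1 to Lypd1) and muscarinic signalling (Rgs9 to Camk2a). Dashed lines mark the fold of 0.5. Ache stands at 0.06 and -0.13. The other 14 genes were picked for being past the fold with vehicle, and they lie below -0.5 with RGFP109 too. Apart from Ache, genes of these lists within the fold with vehicle are not shown.

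Other receptor families of modulatory transmitters are given side by side for the vehicle genotype comparison, with no test of the difference between families. The shares over all genes were 12.7% lower and 5.47% higher by more than the fold. Of 5 dopamine receptor genes, 4 were lower by more than the fold and 1 was higher, with a median of -1.03. Of 12 serotonin receptor genes that reached 0.1 FPKM, 5 were lower and 1 was higher, with a median of -0.46. Of 9 adrenergic receptor genes, 5 were lower and 0 were higher, with a median of -0.75. The acetylcholine receptor genes, with 4 lower of 10 and a median of -0.39, had the median nearest to 0 of the 4 lists. These 10 are a chosen part of their family. They leave out 11 other nicotinic subunit genes, of which 6 reached 0.1 FPKM, with a median of -0.20. With RGFP109 in R6/1 mice the medians were -0.24, -0.13 and 0.06 for the 3 other families.

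The genes with the most similar pattern were found for the 4 genes past the fold in the vehicle genotype comparison. Likeness was the distance between the log2 differences of the 3 other groups from WT-vehicle, over the 13715 genes of at least 1 FPKM. Nearest to Chrm4 were Actn2 at a distance of 0.076, Npy at 0.079 and Tex40 at 0.088, and 5 genes lay within 0.1. Nearest to Chrna4 were Olfr1393 and Fam83d at 0.074 each and Prss12 at 0.098, and 3 genes lay within 0.1. Nearest to Chrm3 were Chgb at 0.018, Ppp1r3c at 0.034 and Map4k1 at 0.035, and 110 genes lay within 0.1. Nearest to Chrna5 were B230206H07Rik at 0.099, Adamts1 at 0.102 and Gadd45g at 0.122, and 1 gene lay within 0.1. Among the genes searched, the pattern of Chrm3 was thus a common one, and those of Chrm4, Chrna4 and Chrna5 had few near neighbours. Chrna5 is itself under 1 FPKM, and genes of that class were not searched, so how common its pattern is there is unknown.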

How the data were processed

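Total RNA (380 ng) of the striatum was made into TruSeq libraries and read as 51-base single reads. The authors aligned the reads to RefSeq transcripts of mm10 with STAR 2.5.0b and ran Cufflinks 2.2.1 and Cuffdiff. The deposited files are 6 tables, 1 per pair of groups, with 1 FPKM value per gene and group. Cuffdiff scaled each pair on its own. The tables also hold a fold change, a test statistic, a p-value, a q-value and a status per gene from the authors' comparisons, which were not used.

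Each difference was taken within the table of its pair as log2(FPKM + 0.05), and genes with a mean FPKM of at least 0.1 over the 4 groups were kept, 16822 of 24341. A gene past an absolute difference of 0.5 was counted. With 1 value per group no test was made. Depth per library was unknown, so no interval or detection limit is given.

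The receptor genes, gene lists, marker lists and settings were chosen with earlier results of these data known. Named were all receptor genes, their 3 nearest genes by pattern, and of each of 4 cholinergic lists up to 6 genes with the largest difference past the fold between the vehicle groups, with Chat, Slc18a3, Slc5a7 and Ache always. Other genes were named after their values were seen. One marker gene is not reported here and was left out of its list. Alternatives covered the pseudocount, the fold, the filter, centring and the route through other tables. Scripts were tested on simulated data. Python 3.11.15, numpy 2.4.6, pandas 2.3.3 and matplotlib 3.10.9 were used.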

Additional observations from a re-analysis of the deposited data

Results flagged for a closer look

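The 10 receptor genes and the 6 other nicotinic subunit genes that reached 0.1 FPKM were compared between genotypes. For 7 of them the log2 difference between RGFP109 and vehicle had opposite signs in the 2 genotypes, more than 0.5 apart. A distance of more than 0.5 alone was seen for 9.95% of all genes and 5.52% of those of at least 1 FPKM. Among genes of 0.1 to 1 FPKM the share was therefore above 9.95%, but it was not computed. The share of all genes that met both conditions was not computed. The difference in R6/1 mice minus that in WT mice was 0.65 for Chrna4, -0.56 for Chrm2, -0.53 for Chrm5, -2.09 for Chrna2, 0.67 for Chrnb3, -0.69 for Chrna10 and -0.52 for Chrnb1. Each rests on 1 value per group, and the difference between the genotypes was not tested. Chrm5, Chrna2, Chrnb3, Chrna10 and Chrnb1 were under 1 FPKM in all 4 groups. Chrna2 stood at 1.27 in WT and -0.82 in R6/1 mice, beside medians of 0.24 and -0.06 for the 6 thalamus and habenula markers. Of these, Gbx2 stood at 1.13 and -0.12, Slc17a6 at 0.64 and -0.29, Calb2 at 0.49 and 0.13, Tac2 at -0.02 and 0.41, Pou4f1 at -0.41 and -0.01 and Lhx9 at -0.48 and -0.46. The part of these markers in the Chrna2 values was not tested.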

How the results depend on the processing

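With a pseudocount of 1 FPKM the count of receptor genes past the fold was 2 between genotypes with vehicle, 1 with RGFP109, 0 for RGFP109 in R6/1 mice and 1 for R6/1-RGFP109 against WT-vehicle. The medians were then -0.20, -0.22 and -0.23 for the first, the second and the last of these. With no pseudocount 2 genes, Chrm5 and Chrna5, were past the fold for RGFP109 in WT mice, and Chrna5 at -0.50, just past it before rounding, made the count between genotypes with RGFP109 4 in place of 3. With a fold of 1 the counts were 1, 1, 0 and 1 in the first order, and with a fold of 0.25 they were 9, 6, 2 and 6, and 4 for RGFP109 in WT mice. Of the 50 differences of the receptor genes, 1 changed sign, Chrna7 between genotypes with RGFP109, which was 0.00 after rounding by either route. With a pseudocount of 1 FPKM, 7 were no longer past the fold, namely Chrm3 in 3 comparisons, Chrna5 in 2, Chrm5 between genotypes with RGFP109 and Chrna4 for RGFP109 in R6/1 mice. Centring on the median of all genes changed 0 of these calls, with Chrm3 between genotypes with vehicle then at -0.50, just past the fold before rounding. The routes through other tables moved no difference by more than 0.01. No paired analysis was possible because each group has 1 value per table, and for the same reason no library could be left out in turn. Depth limits most the genes under 1 FPKM, Chrm5, Chrna5 and Chrna3.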
